A study of Mus musculus with 24 samples.

Results

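The genes described here are 10 genes of the goblet cell, chosen by name from the mucus and secretory programme of that cell: Muc2, Fcgbp, Zg16, Clca1, Tff3, Agr2, Atoh1, Spdef, Spink4 and Retnlb. Among the 18820 genes measured, 9 of them were read by a probe set that no other gene shared. Fcgbp was read only by a probe set that it shared with 9530053A07Rik, and is given apart as the shared Fcgbp probe set. The samples were pieces of terminal ileum from 24 male C57BL/6OlaHsd mice, 8 weeks old and fed a D12450B diet, and each mouse had its own Affymetrix Mouse Gene 1.1 ST array. Mice were conventional or germ-free, and were gavaged once a day over 5 days with water alone, with 10 mg of short-chain β2→1-fructan or with 10 mg of the long-chain form, which made 6 groups of 4. These fructans are chains of fructose obtained from plants, and the study asked how chain length and the microbiota bear on the response of the ileum to them. Conventional mice were bought from a supplier and germ-free mice came from another breeding colony, so that colonization and source cannot be told apart. For germ-free mice the short-chain β2→1-fructan was sterilized by filtration and the long-chain β2→1-fructan by irradiation, which broke down some of its longest chains, so that sterilization and colonization cannot be told apart in the effect of a fructan. RNA came from whole pieces of gut wall, in which fewer goblet cells and less RNA per goblet cell cannot be told apart.

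Goblet cells are secretory epithelial cells that fill large granules with the gel-forming mucin Muc2 and release them to build the mucus of the gut. Their fate is set when Notch signalling is low, through the transcription factor Atoh1, and Spdef then drives maturation of the granules. In the small intestine the mucus is loose, and several goblet cell products, above all Retnlb, are known to depend on the microbiota and on type 2 cytokines.

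Of the 10 genes, 5 (Muc2, Fcgbp, Agr2, Atoh1 and Spdef) were matched by symbol in the promoter table of RefSeq for GRCm38.p6, which gives a window of 300 bases around the start of a gene. Promoters of 2 of them are shown, Muc2 as the mucin that was lower in germ-free mice and Agr2 as its folding partner that passed no test. The Muc2 window lies on the plus strand at chr7:141690090-141690389 and the Agr2 window on the plus strand at chr12:35992675-35992974. Capitals mark matches on either strand, at any distance from the start of the gene. The motifs are TATAAA (the letters of a TATA box), CAGCTG (an E-box of the kind bound by Atoh1-type factors) and TTTATG (a CDX-type motif).
Muc2: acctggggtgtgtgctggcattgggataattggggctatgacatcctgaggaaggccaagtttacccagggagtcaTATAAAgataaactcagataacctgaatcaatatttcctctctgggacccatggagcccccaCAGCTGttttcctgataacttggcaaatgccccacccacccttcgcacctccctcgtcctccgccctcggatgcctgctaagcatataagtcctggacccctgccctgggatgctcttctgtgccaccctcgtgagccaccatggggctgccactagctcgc
Agr2: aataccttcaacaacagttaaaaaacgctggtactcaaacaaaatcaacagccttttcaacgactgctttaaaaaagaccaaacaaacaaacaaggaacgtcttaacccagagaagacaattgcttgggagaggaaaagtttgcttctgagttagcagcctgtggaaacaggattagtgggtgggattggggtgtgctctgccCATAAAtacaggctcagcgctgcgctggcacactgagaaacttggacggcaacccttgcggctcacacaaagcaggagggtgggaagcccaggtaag
The Muc2 window held 1 TATAAA, from base 77 of the window, and 1 CAGCTG, from base 139. The Agr2 window held 1 TTTATG on the minus strand, from base 204, so that it is printed as its reverse complement. Of 32851 promoters of the same length, 13.6% held TATAAA, 16.3% held CAGCTG and 11.9% held TTTATG. TTCNNNGAA, a pair of STAT half-sites, was found in none of the 5 windows and in 8.3% of all promoters. None of these motifs overlapped in the windows shown, and a match is a description of letters and not a site of binding.

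Most of the goblet cell genes were among the brightest of the array. Values are on a log2 scale, on which 1 unit is a doubling. Mean log2 values over the 24 mice were 12.65 for Muc2, 12.47 for Clca1, 12.29 for Zg16, 11.89 for Tff3, 11.35 for Agr2 and 10.93 for Spink4. Each of these means was above that of at least 99.1% of all genes, but levels of different genes depend on their probes and were not compared with each other. The transcription factors Atoh1 and Spdef had means of 8.35 and 7.50. Retnlb, an antimicrobial resistin-like protein secreted by goblet cells, was in the lower part of the scale with a mean of 4.05. No value of these genes reached the top of the scale, where the highest gene of each array stood at 12.94 to 13.22. The highest values of Muc2 (12.78), Clca1 (12.64) and Zg16 (12.42) came close to it. Whether differences are understated so near the top was not tested.

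The spread between mice of the same group set these genes apart from each other. The pooled within-group SD was 0.057 for Muc2, 0.071 for Clca1, 0.090 for Tff3 and 0.092 for Zg16, whereas the median of all genes was 0.16. Only 0.5% of all genes had a smaller SD than Muc2. Among the 27 genes with a mean within 0.5 of that of Muc2, 29.6% had a smaller SD, so that the small spread was shared by other bright genes. Retnlb stood at the other end with an SD of 0.50, above that of 99.5% of all genes and of 99.7% of the 2589 genes of like mean. Spink4, a Kazal-type protease inhibitor secreted by goblet cells, had an SD of 0.17, above that of 93.0% of the 227 genes of like mean.

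**Figure D1:**
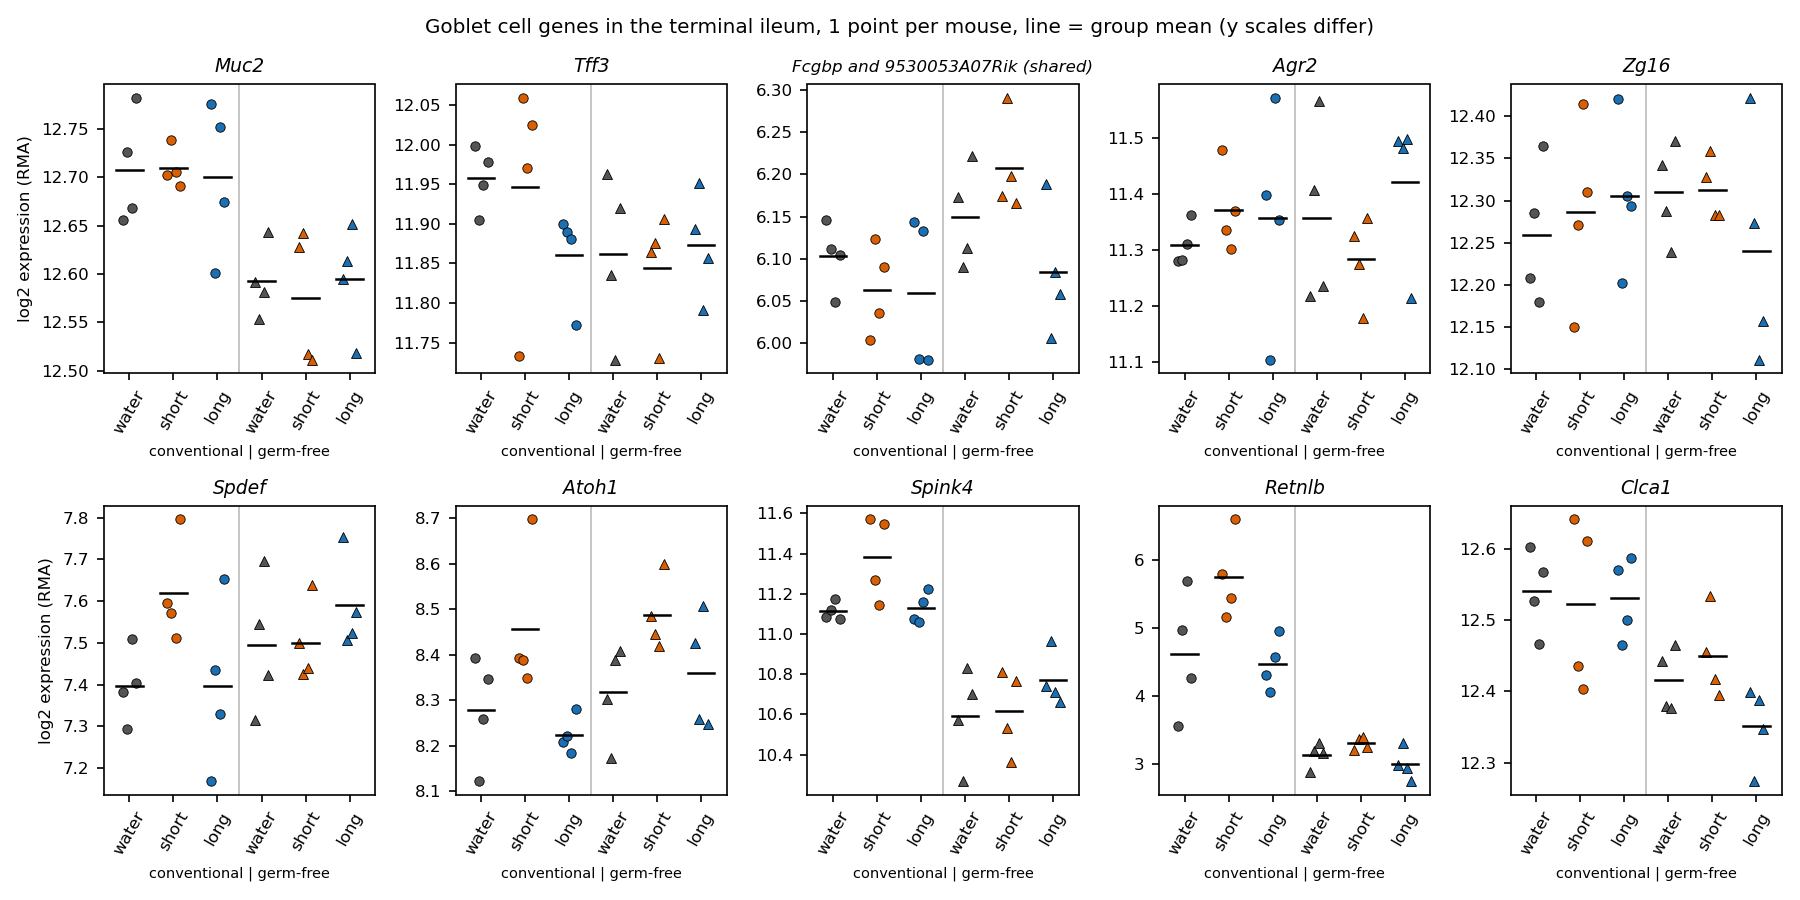
Log2 expression of the 10 goblet cell genes in each mouse, with water, short-chain and long-chain β2→1-fructan in conventional mice (circles) left of the grey line and in germ-free mice (triangles) right of it. Horizontal bars are group means of 4 mice, and each panel has its own y axis. All germ-free mice lay below all conventional mice for Retnlb and Spink4, whereas germ-free and conventional mice overlapped in each treatment for Agr2, Zg16 and Atoh1.

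Germ-free mice had less Retnlb, Spink4, Muc2 and Clca1 RNA than conventional mice, while Tff3, Zg16, Agr2, Atoh1 and Spdef passed no test. Averaged over the 3 treatments, Retnlb was 3.49-fold lower and Spink4 1.46-fold lower in germ-free mice. Muc2 and Clca1 fell by much less, 1.09-fold each. Lower values at an adjusted p under 0.05 were thus found for 4 of 9 goblet cell genes and for 15.4% of all genes, and higher values for none of the 9. With the median of each array subtracted, Muc2 and Clca1 no longer passed, 2 of 9 were lower and 1, Atoh1, was higher. The thresholds of the study ask for a fold change over 1.3 together with an unadjusted p under 0.01. By these, 2 of 9 (Retnlb and Spink4) and 5.22% of all genes were called lower. The median log2 difference was -0.062 over the 9 genes and 0.028 over all genes.

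Retnlb gave the largest difference of the 9 genes. Conventional mice that received water had Retnlb log2 values of 3.56, 4.97, 5.70 and 4.26. After short-chain β2→1-fructan they were 5.79, 5.17, 5.45 and 6.60. After long-chain β2→1-fructan they were 4.32, 4.06, 4.58 and 4.95. Conventional mice thus spread from 3.56 to 6.60, with the lowest mouse, at 3.56, among those on water. Germ-free mice that received water had values of 2.88, 3.20, 3.32 and 3.16. With short-chain β2→1-fructan they had 3.21, 3.37, 3.40 and 3.25. With long-chain β2→1-fructan they had 2.99, 3.31, 2.94 and 2.75. The 12 germ-free mice all lay below the 12 conventional mice and close together. The share of all genes that divide the mice without overlap is not given, here or below. Germ-free levels of Retnlb exceeded only 14.6% to 20.9% of all genes by group, against 36.9% to 52.8% in conventional mice. The log2 difference between germ-free and conventional mice was -1.80 (SE 0.17) over the 3 treatments, with an adjusted p of 5.01e-09 in limma. By treatment it was -1.48 (SE 0.30, adjusted p = 0.00107) with water, -2.44 (SE 0.30, adjusted p = 1.81e-06) with short-chain and -1.48 (SE 0.30, adjusted p = 0.00102) with long-chain β2→1-fructan. Near the bottom of the array a difference on this scale can understate the change in RNA.

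Spink4 divided the mice in the same way. Conventional mice on water had Spink4 log2 values of 11.09, 11.12, 11.18 and 11.07. Those on short-chain β2→1-fructan had 11.57, 11.27, 11.14 and 11.55. Those on long-chain β2→1-fructan had 11.07, 11.06, 11.16 and 11.22. The mice on water and on long-chain β2→1-fructan lay between 11.06 and 11.22, and those on short-chain β2→1-fructan reached higher. Germ-free mice had 10.57, 10.27, 10.83 and 10.70 on water. On short-chain β2→1-fructan they had 10.81, 10.53, 10.36 and 10.77. On long-chain β2→1-fructan they had 10.74, 10.96, 10.71 and 10.66. The highest germ-free mouse, at 10.96, was below the lowest conventional mouse, at 11.06. The log2 difference was -0.55 (SE 0.061, adjusted p = 6.46e-08) over the 3 treatments. It was -0.52 (adjusted p = 0.00112) with water, -0.76 (adjusted p = 1.05e-05) with short-chain and -0.36 (adjusted p = 0.0208) with long-chain β2→1-fructan, where the fold change of 1.28 stayed under the threshold of the study. Leaving out conventional long-chain replicate 4, germ-free long-chain replicate 3 or germ-free long-chain replicate 4 gave an adjusted p of 0.0636, 0.0549 or 0.0646 for this last comparison.

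Muc2, the mucin that forms the gel itself, was lower by a small amount. Conventional mice had Muc2 log2 values of 12.66, 12.73, 12.67 and 12.78 on water. On short-chain β2→1-fructan the values were 12.70, 12.74, 12.71 and 12.69. On long-chain β2→1-fructan they were 12.78, 12.60, 12.75 and 12.67. Conventional groups had nearly the same mean, 12.71, 12.71 and 12.70. Germ-free mice had 12.59, 12.55, 12.58 and 12.64 on water. With short-chain β2→1-fructan they had 12.63, 12.64, 12.52 and 12.51. With long-chain β2→1-fructan they had 12.59, 12.61, 12.65 and 12.52. Conventional and germ-free mice did not overlap on water or on short-chain β2→1-fructan, and overlapped on long-chain β2→1-fructan through a single conventional mouse at 12.60. The log2 difference was -0.12 (SE 0.028, adjusted p = 0.00154) over the 3 treatments, and within single treatments it was -0.12, -0.13 and -0.11 with adjusted p of 0.126, 0.0632 and 0.150. On that scale of subtracted medians the Muc2 difference over the 3 treatments was -0.066 with an adjusted p of 0.102, and with cyclic loess between arrays it was larger in each treatment, at -0.19, -0.20 and -0.15.

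Clca1, a secreted metalloprotease of the mucus, was lower by a similar amount. Its log2 values ranged from 12.40 to 12.64 in conventional mice and from 12.27 to 12.53 in germ-free mice. On water the germ-free mice, at 12.44, 12.38, 12.38 and 12.46, lay just below the conventional mice, at 12.60, 12.53, 12.47 and 12.57. On long-chain β2→1-fructan the germ-free mice, at 12.40, 12.27, 12.39 and 12.35, lay below the conventional mice, at 12.57, 12.47, 12.50 and 12.59. On short-chain β2→1-fructan the groups overlapped. The log2 difference was -0.13 (SE 0.032, adjusted p = 0.00259) over the 3 treatments, or -0.073 (adjusted p = 0.0968) with array medians subtracted. It was -0.13 on water (adjusted p = 0.140), -0.073 on short-chain (adjusted p = 0.436) and -0.18 on long-chain β2→1-fructan (adjusted p = 0.0252). Leaving out any of conventional long-chain replicates 1 and 4 and germ-free long-chain replicates 2 and 4 raised this last adjusted p to between 0.0508 and 0.0781.

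The other components of the mucus gel had no adjusted p under 0.05 between germ-free and conventional mice. Tff3, a trefoil peptide secreted with Muc2, ranged from 11.73 to 12.06 in conventional and from 11.73 to 11.96 in germ-free mice, with a log2 difference of -0.062 (adjusted p = 0.209). Zg16, a lectin of the mucus that binds Gram-positive bacteria, ranged from 12.15 to 12.42 in conventional and from 12.11 to 12.42 in germ-free mice, with a difference of 0.0040. Its interval of 2 SE ran from -0.071 to 0.079, and both groups covered nearly the same range. The shared probe set of Fcgbp, which encodes a large protein bound to Muc2 in mucus, ranged from 5.98 to 6.15 in conventional and from 6.01 to 6.29 in germ-free mice. Its difference was 0.072 (SE 0.040, adjusted p = 0.189 in a fit of all 23099 annotated probe sets). On short-chain β2→1-fructan alone, germ-free mice at 6.17, 6.29, 6.20 and 6.17 all lay above conventional mice at 6.00, 6.12, 6.04 and 6.09 (adjusted p = 0.186, exact permutation p = 0.029).

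The genes that fold the mucin and set the cell type also overlapped. Agr2, a disulfide isomerase of the endoplasmic reticulum that is needed to make Muc2, had a log2 difference of 0.0082 with an interval of 2 SE from -0.087 to 0.10. Atoh1 ranged from 8.12 to 8.70 in conventional and from 8.17 to 8.60 in germ-free mice, with a difference of 0.068 (adjusted p = 0.270), or 0.12 (adjusted p = 0.0305) with array medians subtracted. Spdef ranged from 7.17 to 7.80 in conventional and from 7.32 to 7.75 in germ-free mice, with a difference of 0.058 (adjusted p = 0.449). By treatment the Spdef difference was 0.098 on water, -0.12 on short-chain and 0.19 on long-chain β2→1-fructan, with adjusted p of 0.569, 0.465 and 0.172. The last of these passed at an adjusted p of 0.0281 with array medians subtracted and of 0.0470 without conventional long-chain replicate 4, and was 0.12 (adjusted p = 0.478) without conventional long-chain replicate 1.

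On water 2 of 9 were called lower, Retnlb and Spink4, against 5.96% of all genes, and the same 2 were lower at an adjusted p under 0.05, against 7.93%. On short-chain β2→1-fructan the same 2 were called, against 4.47% of all genes, and passed at an adjusted p under 0.05, against 6.21%. On long-chain β2→1-fructan only Retnlb was called, against 6.26% of all genes, and Retnlb, Spink4 and Clca1 were lower at an adjusted p under 0.05, against 8.58%. The last count fell from 3 to 1, Retnlb, without conventional long-chain replicate 4, without germ-free long-chain replicate 4 or with array medians subtracted.

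**Figure D2:**
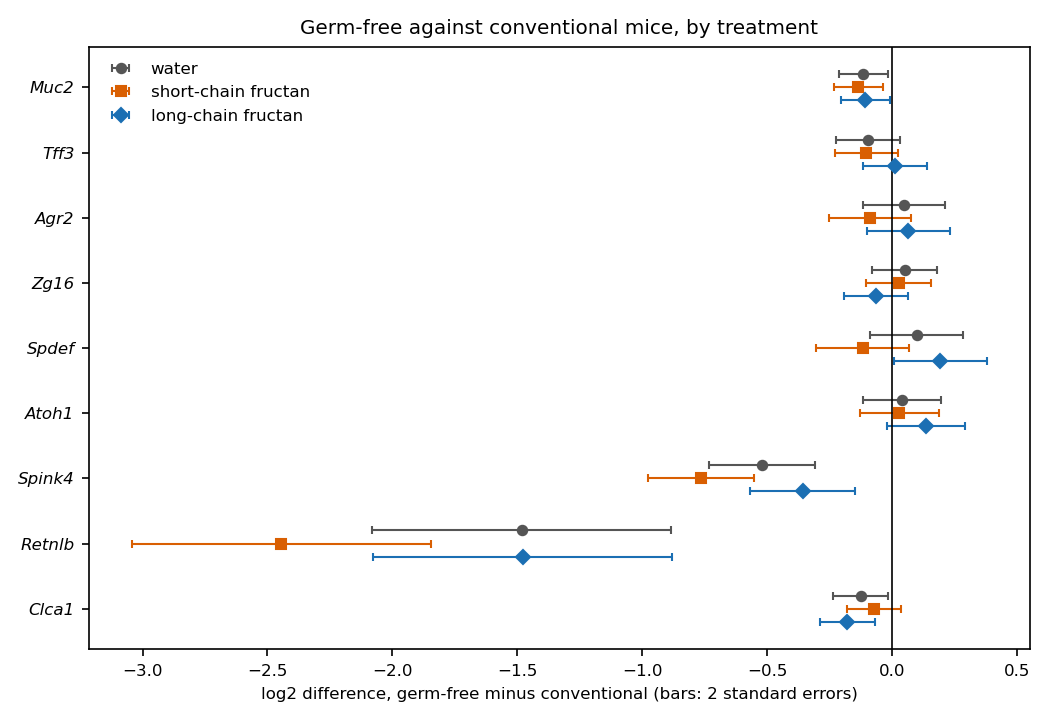
Log2 difference between germ-free and conventional mice for the goblet cell genes except Fcgbp, on water, short-chain and long-chain β2→1-fructan. Points are differences of means of 4 mice and bars are 2 standard errors of the fit. Retnlb (-1.48, -2.44 and -1.48) and Spink4 (-0.52, -0.76 and -0.36) lay left of 0 in each treatment, and the other genes lay close to 0.

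Other cell types of the tissue differed between germ-free and conventional mice as well, and their part in the results above was not tested. Of 5 markers of the whole epithelium, none was called and 1 was higher in germ-free mice (Krt20, 0.10). Their mean log2 value ranged from 10.97 to 11.07 over conventional and from 10.97 to 11.13 over germ-free mice. All 7 measured Paneth cell markers were lower at an adjusted p under 0.05, with list means from 10.96 to 11.25 in conventional and from 10.20 to 10.55 in germ-free mice. Smooth muscle markers were lower (6 of 6, from 10.37 to 10.65 against 9.38 to 10.33), T cell markers were lower (5 of 5, from 6.27 to 7.01 against 4.38 to 5.23), and adipocyte markers were higher (5 of 5, from 5.11 to 6.59 against 5.96 to 8.12). The 5 genes of the terminal ileum, Fabp6 among them, had list means from 10.70 to 11.22 in conventional and from 9.78 to 10.97 in germ-free mice. Of these, Fgf15 (-3.57), Slc51b (-0.32) and Slc51a (-0.19) were lower, Slc10a2 was higher (0.15) and Fabp6 differed by 0.022.

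A marker of the large intestine varied between conventional mice. Car1, a carbonic anhydrase of the colon, ranged from 4.70 to 12.56 in conventional and from 4.19 to 8.79 in germ-free mice. Aqp8, a water channel of the colonic surface, stood at 5.03 and 5.37 in conventional water replicates 2 and 3, 5.86 in conventional short-chain replicate 3 and 4.94 in conventional long-chain replicate 1, and at no more than 3.54 in the other mice. Of the 5 measured genes on this list only Car1 was called lower in germ-free mice, and Hoxb13, which marks the distal colon, had group means from 3.76 to 3.99. Over 12 conventional mice, deviations of Retnlb from the group means and of Car1 gave no relation that passed the test (Pearson r = 0.51, exact permutation p = 0.185, adjusted over 4 relations 0.370, Spearman rho = 0.57, exact permutation p = 0.130), and r was 0.039 without the 2 mice farthest in Retnlb. For Aqp8, r was 0.33 (exact permutation p = 0.356, adjusted 0.475), rho was 0.55 (exact permutation p = 0.115), and r was 0.0023 without those mice. Without the 4 arrays of high Aqp8, an omission chosen after the values had been seen, the Retnlb difference on water was -0.77 with an adjusted p of 0.120. Over the 3 treatments it was -1.62 with an adjusted p of 2.81e-08.

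Genes that work beside the 10 were taken from lists of pathways, to be read against all genes, of which 15.4% were lower and 18.6% higher in germ-free mice at an adjusted p under 0.05. Of 8 other mucins, Muc4, a mucin of the cell surface, was called lower in germ-free mice (-0.75, adjusted p = 5.80e-10). Muc13 (-0.21), Muc1 (-0.20) and Muc3 (-0.11) were also lower at an adjusted p under 0.05, and none was higher. The median of the list was -0.076. Of 14 transcription factors and Notch genes, 4 were lower and none was higher (15.4% and 18.6% of all genes), and Elf3, an epithelial ETS factor, was the one called (-0.53). Dll4, a Notch ligand (-0.31), Notch1 (-0.16) and Cdx2 (-0.15) made up the rest.

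Of 10 genes of secretory folding and the unfolded protein response, 5 were higher in germ-free mice and 1 was lower, against 18.6% and 15.4% of all genes. Higher were Agr3, a relative of Agr2 and the one called (0.53), the isomerase Pdia6 (0.32), the chaperones Hspa5 (0.29) and Hsp90b1 (0.13) and the stress factor Atf4 (0.23). Lower was Ern2 (-0.18), a stress sensor of goblet cells. Of 16 genes for mucin O-glycans, 6 were lower and Gcnt3 was higher (0.34), against the same shares. Those called lower were Gcnt1 (-2.07), which branches the core of O-glycans, Fut2 (-1.75), which adds fucose to glycans of the epithelium, B3gnt7 (-0.54) and B3gnt6 (-0.48). Medians of these lists were 0.11 and -0.022.

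Genes of granule release and mucus processing gave 3 higher and 6 lower of 16, where all genes gave 18.6% higher and 15.4% lower, the shares that also stand beside the next 2 lists. Called were the ion channel Cftr (0.50) and the exchanger Slc26a3 (0.45), both higher, and the crosslinking enzyme Tgm2 (-0.75). Rab27a (-0.22) and Rab3d (-0.22), GTPases of granule release, were lower, as were Mep1a (-0.12) and Mep1b (-0.12), subunits of the protease meprin, the second of which is needed to release Muc2 from the cell. Of 17 other goblet cell markers, 7 were lower and 2 were higher. The chemokine Ccl6 (-0.77), Clps (-0.79) and the antimicrobial Ang4 (-0.68), which Paneth cells also make, were called lower. Guca2a went the other way, and on long-chain β2→1-fructan it was higher in germ-free mice by 0.22 (adjusted p = 0.0175 in limma). Of 12 genes of type 2 and IL-22 cytokines, 4 were lower and 1 was higher. Il4ra, a receptor chain for IL-4 and IL-13, was called lower (-0.40), and Stat3 (-0.26) and Il13ra1 (-0.26) passed at an adjusted p under 0.05. Il4 itself went the other way, and on long-chain β2→1-fructan it was called higher in germ-free mice (0.54, adjusted p = 0.00547 in limma). Medians of the 3 lists were 0.00079, -0.054 and -0.011.

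In conventional mice, 1 of the 9 goblet cell genes was called higher after short-chain β2→1-fructan than after water. Retnlb was 2.19-fold higher than with water (log2 difference 1.13, SE 0.30, unadjusted p = 0.000842 in limma), but its adjusted p was 0.843. The SE comes from a spread shared by all 6 groups. Retnlb SDs were 0.92 on water and 0.62 after short-chain β2→1-fructan here, against 0.09 to 0.23 in the germ-free groups. The SE and p of this fit can thus be too small for conventional mice. The study itself points to Retnlb after this treatment in these same mice, so that the call is no independent evidence. Over all genes 0.409% were called, and none of them passed at an adjusted p under 0.05, where 982 had an unadjusted p under 0.05. The highest Retnlb value of the study, 6.60, was in a mouse on short-chain β2→1-fructan, but the mouse at 5.70 on water lay above 2 of the 4 treated mice. The exact permutation test of 4 mice against 4 gave p = 0.114, two-sided, where the smallest p that it can give is 0.029. Omitting the 4 arrays of high Aqp8 raised the difference to 1.94 (adjusted p = 0.0105), which rests on mice chosen after their values had been seen. List means of 5 adipocyte markers did not overlap in the same comparison, from 6.001 to 6.016 on water and from 5.11 to 5.73 after short-chain β2→1-fructan, and none was called (Retn -1.09, Adipoq -1.03), and their part in the Retnlb difference was not tested.

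The genes next highest after short-chain β2→1-fructan were Spink4, Spdef and Atoh1. Spink4 had a log2 difference of 0.27 (unadjusted p = 0.0173), with mice at 11.57 and 11.55 well above those on water and mice at 11.27 and 11.14 close to them. Spdef had values of 7.60, 7.57, 7.51 and 7.80, against 7.38, 7.29, 7.51 and 7.40 on water. The groups just failed to overlap, by 7.5106 against 7.5085, and the difference was 0.22 (unadjusted p = 0.0253, exact permutation p = 0.029). Atoh1 had values of 8.39, 8.39, 8.35 and 8.70, against 8.39, 8.12, 8.26 and 8.35. These overlapped, with a difference of 0.18 (unadjusted p = 0.0326, exact permutation p = 0.114), or 0.097 without conventional short-chain replicate 4, the mouse at 8.70. Adjusted p was 0.910 for Spink4, 0.936 for Spdef and 0.951 for Atoh1, and none reached a fold change of 1.3.

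The mucus genes themselves passed no test after short-chain β2→1-fructan. The log2 difference was 0.0014 for Muc2, with an interval of 2 SE from -0.096 to 0.099. It was 0.027 for Zg16, -0.011 for Tff3, -0.018 for Clca1, 0.062 for Agr2 and -0.040 for the shared Fcgbp probe set. Among the lists, B3gnt7 (0.47, unadjusted p = 0.00706), an enzyme that extends glycans, and Fut2 (1.01, unadjusted p = 5.69e-05) were called higher, and no gene of the other lists was called. Fut2 has an adjusted p of 0.268 and is a gene that the study names from these mice.

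None of the 9 goblet cell genes was called after long-chain β2→1-fructan in conventional mice, against 0.313% of all genes. None of the 9 had an unadjusted p under 0.05 in limma, and the count stayed at 0 under each alternative that was run. Retnlb had a log2 difference of -0.15 with an interval of 2 SE from -0.75 to 0.45, which is wide enough to hold a change in either direction. This interval rests on the spread shared by all 6 groups, which is smaller than that of the conventional water mice (SD 0.92). Spink4 (0.014), Muc2 (-0.0072) and Clca1 (-0.010) stayed near 0. Tff3 was the only one of the 9 whose groups did not overlap, and the share of all genes without overlap is not given. Tff3 values were 11.90, 11.89, 11.88 and 11.77 after long-chain β2→1-fructan and no lower than 11.91 on water, a difference of -0.097 (SE 0.063, unadjusted p = 0.137, exact permutation p = 0.029). From the lists, B3gnt7 was called higher again (0.48), in a comparison with the same water mice. Fut2 was higher by 0.58 but just missed the call (unadjusted p = 0.0109, adjusted p = 0.864 in limma).

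Between the fructans in conventional mice, Retnlb was called lower with the long-chain form but did not pass once adjusted over all genes. The log2 difference was -1.27 (SE 0.30, unadjusted p = 0.000234, adjusted p = 1.00 in limma), a 2.42-fold lower level. All 4 mice on long-chain β2→1-fructan, at 4.06 to 4.95, lay below all 4 on short-chain β2→1-fructan, at 5.17 to 6.60 (exact permutation p = 0.029). Retnlb was the only one of the 9 called, against 0.213% of all genes. From these same mice the study proposes a stronger response to the short-chain form, with Retnlb among its examples. The call and the lack of overlap are thus no independent evidence. Atoh1 did not overlap either, at 8.21, 8.22, 8.18 and 8.28 against 8.35 to 8.70, and its difference of -0.23 (unadjusted p = 0.00635) was too small a fold change to be called. It was -0.15 (unadjusted p = 0.0544) without conventional short-chain replicate 4. Spink4 (-0.25, unadjusted p = 0.0233) and Spdef (-0.22, unadjusted p = 0.0245) had the same sign but overlapping mice, and Spdef was -0.15 without conventional long-chain replicate 1. None of the 14 transcription factors and Notch genes was called, and the smallest p of that list was that of the Notch ligand Dll1 (-0.38, unadjusted p = 0.00057, adjusted p = 1.00). Each of these comparisons shares mice with the comparisons with water, so that they are not independent.

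In germ-free mice none of the 9 goblet cell genes was called after either fructan. Against water, 0 of 9 and 0.579% of all genes were called for short-chain β2→1-fructan, and 0 of 9 and 0.855% for long-chain β2→1-fructan. Between the fructans it was 0 of 9 and 1.41%. Retnlb differed from water by 0.17 after short-chain and by -0.14 after long-chain β2→1-fructan, with intervals of 2 SE from -0.43 to 0.77 and from -0.74 to 0.46. These intervals come from a spread shared with the conventional mice, and the germ-free mice themselves lay within 2.75 to 3.40. Spink4 differed by 0.025 and 0.18, Muc2 by -0.018 and 0.0020, and Clca1 by 0.035 and -0.064.

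Atoh1 was the only goblet cell gene with an unadjusted p under 0.05 in germ-free mice. Its values were 8.48, 8.45, 8.42 and 8.60 after short-chain β2→1-fructan and 8.30, 8.17, 8.39 and 8.41 on water. The groups did not overlap, and the log2 difference was 0.17 (SE 0.078, unadjusted p = 0.0417, adjusted p = 0.861, exact permutation p = 0.029). The difference in conventional mice was 0.18, or 0.097 without the mouse at 8.70, and neither reached a fold change of 1.3. List means of the 5 terminal ileum genes did not overlap in the same germ-free comparison, from 10.39 to 10.97 on water and from 9.78 to 10.24 after short-chain β2→1-fructan. List means of the 5 tuft cell markers did not overlap either, from 5.04 to 5.17 on water and from 5.20 to 5.29 after short-chain β2→1-fructan. Of the terminal ileum genes only Fgf15 was called (-2.70), and no tuft cell marker was called. The part of either list in the Atoh1 difference was not tested. From the lists, Creb3l1, a transcription factor of secretory cells, was called higher after long-chain β2→1-fructan against water (0.39) and against short-chain β2→1-fructan (0.51), and Rep15, a goblet cell marker bound to Rab15, was called lower in the last (-0.41). In no gene of the lists did the adjusted p of a fructan comparison fall under 0.05.

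**Figure D3:**
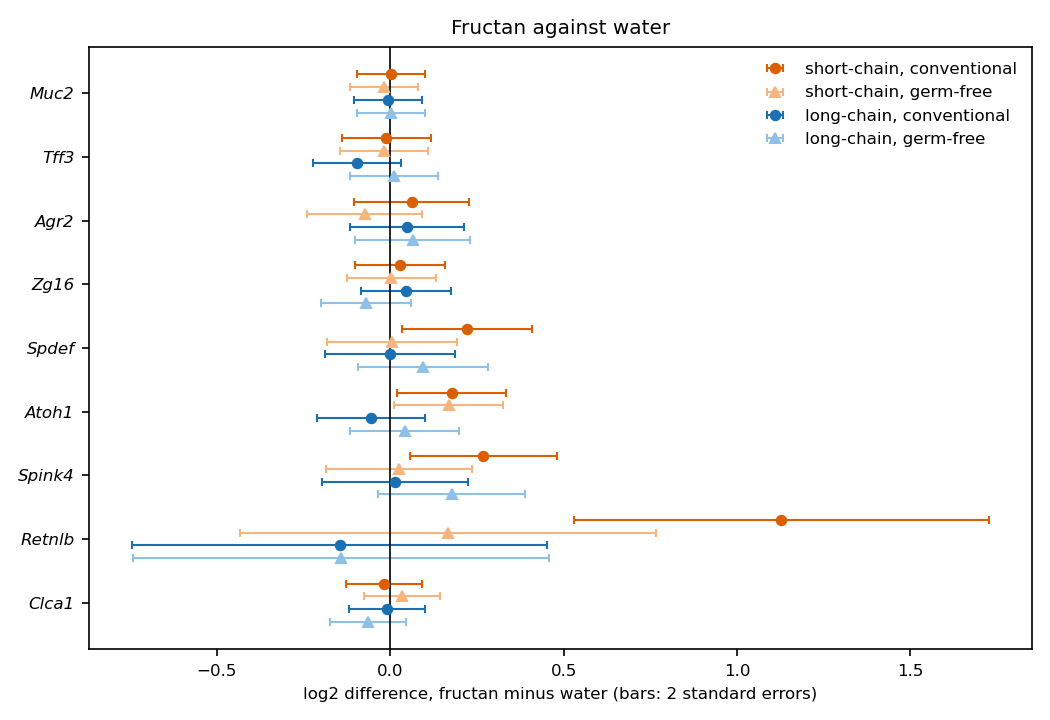
Log2 difference between each fructan and water for the goblet cell genes except Fcgbp, in conventional mice (circles) and germ-free mice (triangles). Points are differences of means of 4 mice and bars are 2 standard errors. Retnlb after short-chain β2→1-fructan in conventional mice (1.13) lay farthest from 0, and both fructans share the same water mice within a status.

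Whether the effect of a fructan depended on colonization was tested as the difference of differences. For Retnlb the effect of short-chain β2→1-fructan was smaller in germ-free than in conventional mice by a log2 value of -0.96 (SE 0.42, unadjusted p = 0.0316, adjusted p = 0.900), which did not meet the threshold of the study. None of the 9 genes was called, against 0.707% of all genes. Spink4 (-0.24, unadjusted p = 0.115) and Spdef (-0.22, unadjusted p = 0.113) followed, Spink4 at -0.16 without germ-free short-chain replicate 3, and Atoh1 stood at -0.0091. Without conventional water replicate 3, the mouse with the highest Retnlb among the water controls, the Retnlb value was -1.32 (unadjusted p = 0.00146) and would be called, and without the 4 arrays of high Aqp8 it was -1.77. Without conventional water replicate 1, the mouse with the lowest Retnlb among those controls, it was -0.61 (unadjusted p = 0.114). Among the lists Fut2 was called (-0.88). For long-chain β2→1-fructan 0 of 9 genes and 0.531% of all genes were called, and the Retnlb value was 0.0043 with an interval of 2 SE from -0.84 to 0.85.

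Mice of the same group that were high in one goblet cell gene were only loosely high in the others. Over 24 arrays with group means taken out, the 45 pairs of the 10 genes had a median Pearson r of 0.14, with 31 pairs above 0. These arrays share their normalization, and the values are given as a description. The highest r was 0.54, between Muc2 and the shared Fcgbp probe set, and the next was 0.53, between that probe set and Zg16. Tff3 and Zg16 had 0.49 and Muc2 and Zg16 0.47. Other pairs from the gel were lower, with 0.16 for Muc2 and Tff3, 0.031 for Zg16 and Clca1 and -0.23 for Tff3 and Clca1. Atoh1 and Spdef, the factors of the lineage, had 0.47, and Atoh1 and Clca1 0.45. The lowest r was -0.44, between Muc2 and Spdef.

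The pair of Retnlb and Spink4, the genes that divided conventional from germ-free mice, was chosen from these same data. It was 1 of the 45 pairs, over which its p was not adjusted, and its Pearson r over the 24 arrays was 0.36. Over 12 conventional mice, with group means taken out and mice permuted within groups, Pearson r was 0.60 (exact permutation p = 0.0118, adjusted over 4 relations 0.0472) and Spearman rho 0.71 (exact permutation p = 0.00543). Without the 2 mice farthest from the median in Retnlb, r was 0.74. Over 12 germ-free mice r was 0.20 (exact permutation p = 0.562) and rho 0.12 (exact permutation p = 0.744), and r was -0.013 without the 2 farthest mice. The difference between the relations was not tested.

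**Figure D4:**
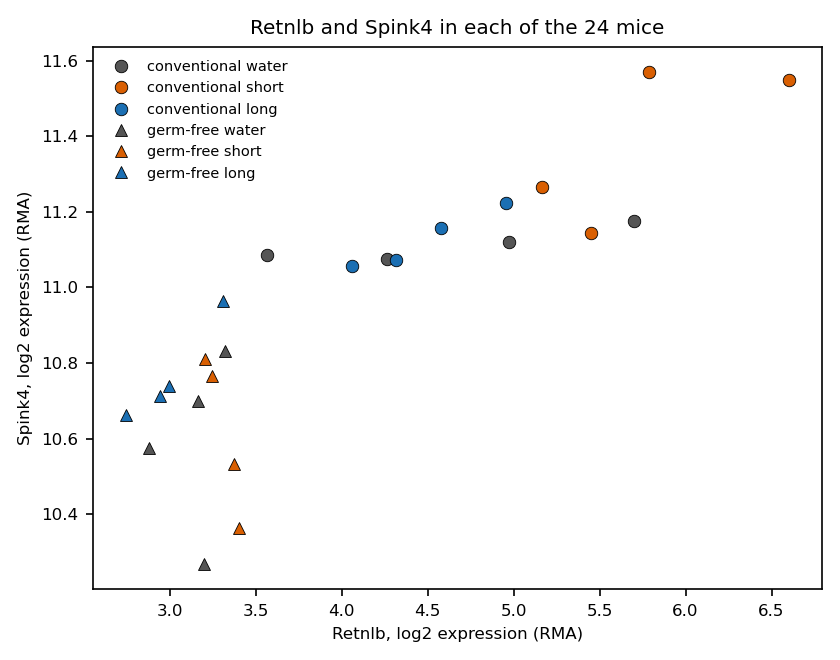
Spink4 against Retnlb, both as log2 expression, in each of the 24 mice, with conventional mice as circles and germ-free mice as triangles. Germ-free mice reached 3.40 for Retnlb and 10.96 for Spink4, and conventional mice started at 3.56 and 11.06.

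For Muc2, Retnlb, Spink4 and Clca1, the 5 genes of most similar pattern over the 24 arrays were found with group means taken out (Fcgbp was not among the genes compared), and held none of the 9. They were picked as the highest of 18819 genes, which by itself makes r high, and are given as a description without a test. For Muc2 the 5 highest Pearson r of 18819 genes belonged to Rpl38 (0.76), Zfp971 (0.75), Sdc4 (0.71), Ddost (0.70) and Dzank1 (0.69). For Retnlb they belonged to Olfr1089 (0.71), Scn4b (0.70), Pate12 (0.69), Skint9 (0.69) and Sec61b (0.68), of which only Sec61b had a mean above that of Retnlb. Spearman rho of these genes with Retnlb ran from 0.49 (Olfr1089) to 0.69 (Sec61b). For Spink4 they belonged to H2ac21 (0.81), Havcr1 (0.78), Ccnb2 (0.76), Rtp1 (0.76) and Pwwp2b (0.75). For Clca1 they belonged to Ceacam18 (0.78), Gltp (0.75), Cd55 (0.74), Csnk1g3 (0.73) and Plpbp (0.72).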

How the data were processed

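The authors deposited log2 expression values for every probe set on every array, made with RMA (named in the submitters' processing notes), which corrects background, quantile-normalizes arrays and summarizes probes. The methods name probe sets regrouped by Entrez Gene, whereas the deposited table carries the probe set numbers of the maker of the array. Of 35556 probe sets, 21218 have 1 gene symbol in the platform table. The brightest of each gene was kept, which gave 18820 genes, with 1 probe set for each of the 9 goblet cell genes. The goblet cell genes were matched by symbol, and the Entrez ID of Clca1, which older tables name Clca3, was that of the current gene. Array medians lay between 4.92 and 4.98. Groups and replicate numbers came from the sample labels, and with 4 mice per group the number of arrays limits the precision.

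The model held the means of the 6 groups, and all 24 arrays entered it through limma 3.58.1 (R 4.3.3), whose prior variance was allowed to follow expression. The word called means a fold change over 1.3 and an unadjusted p under 0.01, the thresholds of the methods. Benjamini-Hochberg adjusted p over all 18820 genes is given beside it, and passing it at 0.05 is the threshold for germ-free against conventional mice. Exact permutation tests over the 70 divisions of 8 mice, two-sided, were run in Python 3.11.15 with numpy 2.4.6. Groups of 4 without overlap always give their smallest p, 0.029, and the share of all genes without overlap is not given. The fit was tested on simulated data. Alternatives were a common prior, the intensity-based moderated t of the methods, fits of 12 or 8 arrays, array weights, cyclic loess, array medians subtracted, genes with a mean under 4 left out, probe sets averaged, a replicate block and each array left out, and, added after seeing the data, 4 arrays with Aqp8 above 4.5 omitted. The goblet cell genes and all lists were chosen with earlier results of these data known. All 10 are described. Of each list the text names the genes called, with the smallest-p gene as the rule where none was called, and for Muc2, Retnlb, Spink4 and Clca1 the 5 genes of most similar pattern. Some genes named by this rule are not described, and further genes past an adjusted p of 0.05 were chosen after their values were seen. Promoters are those of RefSeq for GRCm38.p6.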

Additional observations from a re-analysis of the deposited data

Results flagged for a closer look

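Of 60 groups of 4 values (10 genes in 6 groups), 3 held a mouse that stood apart from the others of its group, and chance gives about 1 in 20 such groups. Tff3 had a lowest value of 11.77 in conventional long-chain replicate 4. Agr2 had a lowest value of 11.21 in germ-free long-chain replicate 4. Atoh1 had a highest value of 8.70 in conventional short-chain replicate 4, the mouse that also had the highest Retnlb and Spdef of all mice. The Retnlb response to short-chain β2→1-fructan differed between germ-free and conventional mice by a log2 value of -0.96 at an unadjusted p of 0.0316 in limma, and did not pass when adjusted over all genes (0.900).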

How the results depend on the processing

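Differences were refitted under the alternatives for 27 results of 6 goblet cell genes, those with an unadjusted p under 0.05 and 1 more, and none changed direction. Counts of genes, in the direction reported, stayed within 1.5 times those reported at 154 values under settings other than leaving out an array, and moved further at 8. With array medians subtracted, 2 in place of 4 were lower at an adjusted p under 0.05 over the 3 treatments and 1 in place of 3 on long-chain β2→1-fructan. Cyclic loess gave 4 goblet cell genes at an adjusted p under 0.05 on water and 4 on short-chain β2→1-fructan in place of 2 each, and 2 called on long-chain β2→1-fructan in place of 1, germ-free against conventional. Omitting the 4 arrays of high Aqp8 gave 1 called and 1 at an adjusted p under 0.05 on water in place of 2 each, and 1 called for the interaction with short-chain β2→1-fructan in place of 0. Leaving out single arrays gave 1 to 2 called and 1 to 3 at an adjusted p under 0.05 on long-chain β2→1-fructan, germ-free against conventional (2 called without conventional replicate 2 or germ-free replicate 2, and 1 lower at an adjusted p under 0.05 without conventional replicate 4 or germ-free replicate 4), and 0 to 1 called for the interaction. The cause of these changes was not tested. With the intensity-based moderated t or without dim genes, Muc2 on short-chain β2→1-fructan passed at an adjusted p of 0.0472 and 0.0467, and with array medians subtracted Spink4 on long-chain β2→1-fructan no longer passed (-0.28, adjusted p = 0.0624). Clca1 on long-chain β2→1-fructan did not pass with a common prior (0.0662), with 8 arrays (0.0692) or with array medians subtracted (0.215).

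Replicate numbers did not pair the mice: 60 same-numbered pairs of arrays had correlations from -0.14 to 0.18 (median 0.0074), and 8 of 24 arrays correlated best with their own number. The replicate block changed no call of the goblet cell genes, with 4 at an adjusted p under 0.05 over the 3 treatments and 1 called after short-chain β2→1-fructan in conventional mice, where the Retnlb difference was 1.13. Fits of 12 arrays were run for comparisons within a colonization status only, and fits of 8 arrays for comparisons of 2 groups only. Retnlb in germ-free mice lay near the bottom of the array, where a low signal limits what can be seen.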
